A study of Homo sapiens with 12 samples.

Results

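The 37 genes of the mitochondrial genome were followed across 12 RNA-Seq libraries of the induced pluripotent stem cell (iPSC) line 201B7. They were taken as every row of the deposited expression table whose gene name starts with MT-, which gave 37 of 60617 rows: 13 mRNAs, 2 ribosomal RNAs (rRNAs) and 22 transfer RNAs (tRNAs). Values are TPM, that is, reads divided by gene length and scaled to a common total in each library, so that levels can be compared between genes.

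All 4 conditions used 201B7, 3 libraries each, harvested on Day 5. Cond 1 was the control, kept in StemFit in the usual way, and Cond 2 (low nutrient) received StemFit that had been heated to 56 °C for 30 min. Cond 3 (differentiation) received DMEM containing 10% FBS, 1% NEAA and 1% GlutaMax. Cond 4 (physical stimulus) was pipetted 20 times at passage and then grown like Cond 1. The study dates the start of the heated medium to Day 2, but the switch to serum medium to Day 4. Each comparison asks whether a culture change moved the transcripts of the mitochondrial genome relative to Cond 1. Cond 3 was also set against Cond 2, where medium and length of exposure differ together and cannot be separated. A single established line was used. The study calls the replicates technical in its results, while its methods describe the whole arrangement as run in triplicate (N = 3). In either case p-values measure only the spread among these libraries.

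Mitochondrial DNA is a small circular genome read from both strands as long transcripts. Punctuating tRNAs are cut out of these transcripts, which frees the mRNAs and rRNAs between them. The mRNAs encode core subunits of complexes I, III, IV and V of the respiratory chain, whose other subunits come from nuclear genes, and the rRNAs form the mitochondrial ribosome that translates them. Primed pluripotent cells are known for relying heavily on glycolysis, and mitochondrial activity usually rises as they differentiate.

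The libraries were made from poly(A)-selected RNA. Human mitochondrial mRNAs are known to receive a poly(A) tail, and in many of them the tail supplies the last bases of the stop codon. By the GENCODE release 44 annotation on GRCh38, 6 of the 13 mRNA genes end past their last whole codon, 5 of them with 1 base and 1 with 2 bases. The last 20 bases are shown for the mRNAs whose values carry the results below, with capitals marking the bases past the last whole codon or, where there are none, the last codon.
MT-ND3 (chrM:10385-10404, + strand): aggattagactgaaccgaaT
MT-CO3 (chrM:9971-9990, + strand): catctattgatgagggtctT
MT-ND4 (chrM:12118-12137, + strand): cattaccgggttttcctctT
MT-CYB (chrM:15868-15887, + strand): caaaatactcaaatgggccT
MT-ND2 (chrM:5492-5511, + strand): ttttatactaataatcttaT
MT-ND1 (chrM:4243-4262, + strand): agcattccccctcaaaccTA
MT-CO2 (chrM:8250-8269, + strand): ggcccgtatttaccctaTAG
MT-ND6 (chrM:14149-14168, - strand): agattgctcgggggaatAGG
MT-ND3, MT-CO3, MT-ND4, MT-CYB and MT-ND2 stop at a single T and MT-ND1 at TA, while MT-CO2 carries a whole stop codon.

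MT-ATP8 and MT-ATP6, both subunits of ATP synthase, overlap by 46 bases on one mRNA, shown because reads there belong to both genes; capitals mark the start codon of MT-ATP6 and the stop codon of MT-ATP8.
MT-ATP8/MT-ATP6 (chrM:8527-8572, + strand): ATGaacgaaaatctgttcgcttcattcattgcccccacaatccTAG

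MT-TY and MT-TP, the tRNA genes called in both altered media against Cond 1, are shown whole, with the anticodon in capitals, together with MT-TC, the neighbour of MT-TY, and MT-TF. MT-TY (tyrosine), MT-TC (cysteine) and MT-TP (proline) are read from the light-strand promoter and MT-TF (phenylalanine) from the heavy-strand promoter.
MT-TY (chrM:5826-5891, - strand): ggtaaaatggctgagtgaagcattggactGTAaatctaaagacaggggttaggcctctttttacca
MT-TC (chrM:5761-5826, - strand): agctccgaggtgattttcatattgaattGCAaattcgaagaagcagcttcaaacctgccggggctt
MT-TP (chrM:15956-16023, - strand): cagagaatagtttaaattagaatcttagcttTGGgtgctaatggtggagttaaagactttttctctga
MT-TF (chrM:577-647, + strand): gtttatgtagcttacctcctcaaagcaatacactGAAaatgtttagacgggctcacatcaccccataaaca
MT-TY and MT-TC share base 5826 in this annotation, and MT-TY lies next to MT-CO1, which starts at 5904 on the opposite strand.

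Library totals ranged from 16441148 to 21871503 counts, to which 205516 to 732930 mitochondrial reads were added, equal to 1.10% to 3.55% of all reads. Because the mitochondrial mRNAs are short, the same reads made up 5.09% to 14.5% of TPM. All 15 markers of primed pluripotent cells had a mean of at least 1 TPM over the 12 libraries, with sums of 8464 to 10601 TPM per library. Single markers moved in both directions. NANOG was at 43.6 to 47.2 TPM in Cond 1, 20.2 to 24.6 in Cond 2 and 9.93 to 11.3 in Cond 3. POU5F1 was at 1.03 to 1.57 TPM in Cond 1, 0.412 to 0.789 in Cond 2 and 1.04 to 1.41 in Cond 3. SOX2 was at 878 to 938 TPM in Cond 1, 1287 to 1333 in Cond 2 and 1258 to 1272 in Cond 3. Of 11 fibroblast markers, 5 had a mean of at least 1 TPM, with sums of 425 to 457 TPM in Cond 1, 267 to 315 in Cond 2, 590 to 627 in Cond 3 and 385 to 409 in Cond 4. COL1A1 was at 234 to 259 TPM in Cond 1 and 419 to 454 TPM in Cond 3, and COL1A2 at 45.5 to 48.7 and 106 to 112. THY1 went the other way, at 126 to 157 TPM in Cond 1 and 48.6 to 49.2 in Cond 3. PDGFRB overlapped, at 7.20 to 8.85 TPM in Cond 1 and 6.07 to 9.57 in Cond 3. DCN was at 0 in all libraries of Cond 1, Cond 2 and Cond 3, and the part of these markers in the mitochondrial values was not tested. In Cond 2, replicate 1 stood apart from replicates 2 and 3 in the mitochondrial total, so the Cond 2 total and count of calls are given with and without it.

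The share of total TPM held by the 37 genes was lower in the low nutrient condition in mean, with wide spread. In Cond 1 the 3 libraries held 12.9%, 9.87% and 14.5% of TPM. In Cond 2 they held 10.8%, 6.67% and 5.09%. Cond 2 replicate 1 thus lay inside the range of Cond 1, and replicates 2 and 3 lay below every library of the other conditions. Cond 3 held 11.2%, 12.5% and 12.03%, and Cond 4 held 12.7%, 14.1% and 12.8%. The means ran from 7.52% ± 2.94 (SD, n = 3) for Cond 2 through 11.9% ± 0.692 for Cond 3 and 12.4% ± 2.37 for Cond 1 to 13.2% ± 0.761 for Cond 4.

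The difference of Cond 2 from Cond 1 was -4.93 percentage points, with p = 0.2 in the exact two-sided permutation test, and without Cond 2 replicate 1 it was -6.57 percentage points. Cond 3 lay 4.38 percentage points above Cond 2 without overlap, p = 0.1 in the same exact permutation test, the smallest p that 3 against 3 libraries can give. Against Cond 1 the exact permutation p was 0.8 for Cond 3, and that for Cond 4 was 0.9. Of the 16 comparisons of this kind over 4 shares and ratios, the smallest Benjamini-Hochberg adjusted value was 0.457. In bulk RNA, fewer mitochondrial transcripts per cell and more of all other RNA cannot be told apart.

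**Figure D1:**
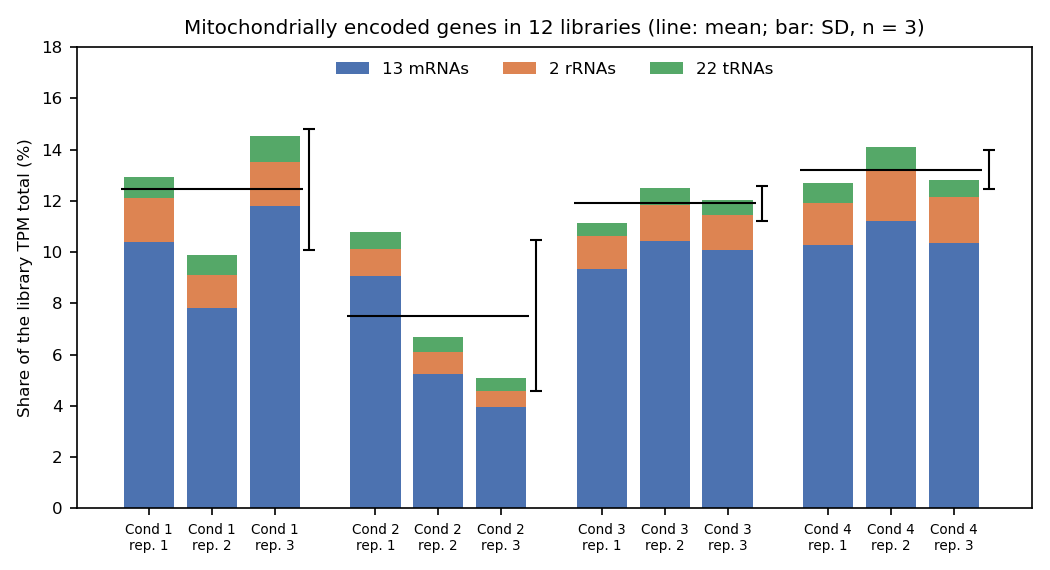
Share of the library TPM total (%, y axis) held by the 13 mRNAs, 2 rRNAs and 22 tRNAs of the mitochondrial genome in each of the 12 libraries; black lines are the means of 3 libraries and the bars beside them the SD. Cond 2 replicates 2 and 3, at 6.67% and 5.09%, are the lowest, and the mRNAs make up most of every bar.

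The spread was itself a feature of these genes. The highest library exceeded the lowest 2.12-fold in Cond 2 and 1.47-fold in Cond 1, against 1.12-fold in Cond 3 and 1.11-fold in Cond 4. On the log2 scale the SD of the mitochondrial sum was 0.549 in Cond 2 and 0.286 in Cond 1. For the 87 nuclear genes with a mean of at least 1000 TPM, the median SD was 0.0766 in Cond 2 and 0.0907 in Cond 1. Within Cond 2, the summed TPM of 8 neuroectoderm markers, of which 5 had a mean of at least 1 TPM, was 1089, 893 and 773 in replicates 1, 2 and 3, against 347 to 402 in Cond 1. The difference lay in SIX3, HESX1 and LHX5, with LHX5 at 334, 244 and 207 TPM against 4.27 to 10.2 in Cond 1. NES, at 339, 317 and 314 TPM, stayed in the range of Cond 1, and PAX6 and SOX1 were at 0.0616 to 0.438 TPM. LHX2 ran opposite to the sum across the replicates, at 0.396, 2.52 and 5.07 TPM. The part of these markers in the mitochondrial values was not tested.

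Among the mRNAs and rRNAs, levels in Cond 1 ran from 18035 down to 2249 TPM. In Cond 1 the most abundant was MT-CO3, a core subunit of cytochrome c oxidase, at 18035 ± 3158 TPM (SD, n = 3). It was followed by MT-CO2 at 15064 ± 2267 TPM, the 16S rRNA MT-RNR2 at 13295 ± 2428 TPM and MT-CO1 at 12238 ± 2881 TPM. Neighbours in the order of means lay within the spread between libraries. Inside each library of Cond 1, however, MT-CO3, MT-CO2, MT-RNR2 and MT-CO1 stood in this order. The lowest were MT-ND5 at 2726 ± 536 TPM, MT-ND6 at 2655 ± 379 TPM and the 12S rRNA MT-RNR1 at 2249 ± 137 TPM. Mitochondrial rRNAs are known to carry only short tails, and their capture by poly(A) selection relative to the mRNAs was not tested.

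Genes joined on a single mRNA had like levels. The ratio of MT-ATP8 to MT-ATP6 was 1.06 ± 0.0598 (SD, n = 3) in Cond 1 and 1.08 ± 0.0233 in Cond 3. The ratio of MT-ND4L to MT-ND4, which also overlap, was 0.857 ± 0.0397 in Cond 1 and 0.957 ± 0.0475 in Cond 3. MT-ND6, the only mRNA read from the light-strand promoter, stood at 33.0% ± 2.18 of the mean of the 12 heavy-strand mRNAs in Cond 1. For Cond 2 this value was 35.1% ± 3.42, for Cond 3 it was 29.0% ± 2.41, and for Cond 4 34.4% ± 2.79. Cond 3 lay below Cond 2 without overlap, with a log2 difference of -0.28 and an exact permutation p of 0.1.

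**Figure D2:**
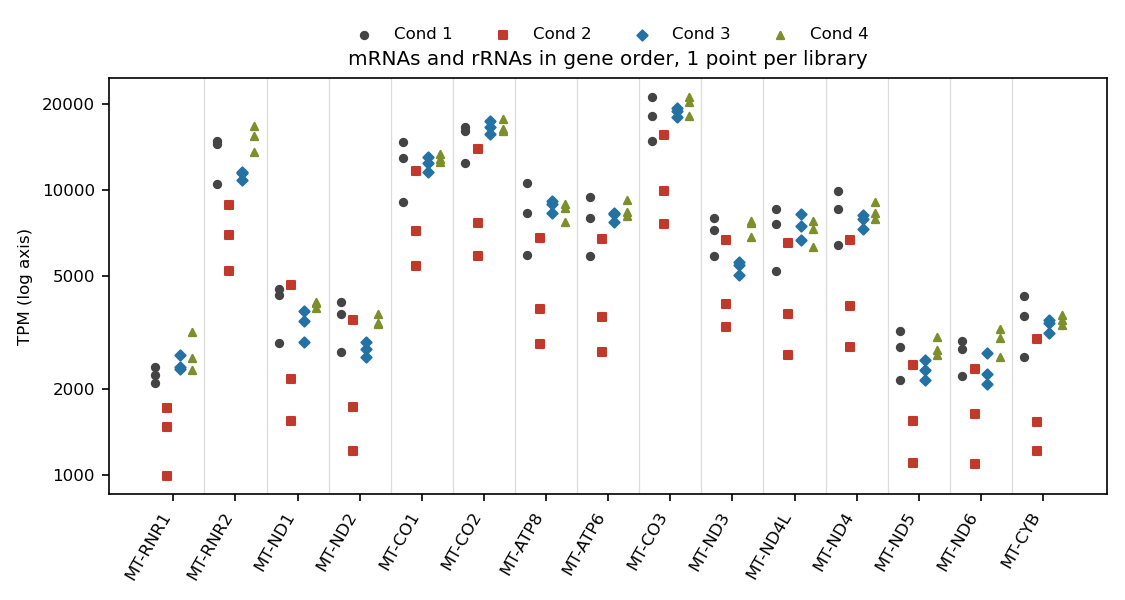
TPM on a log axis (y) of the 2 rRNAs and 13 mRNAs in their order along the mitochondrial genome (x), 1 point per library, with a colour and marker for each condition. Cond 2 replicate 3 is the lowest point for every gene shown, at 998.9 TPM for MT-RNR1 and 7573 TPM for MT-CO3, while Cond 2 replicate 1 often lies among the points of the other conditions.

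Of the 37 genes, 30 had a mean of at least 1 TPM over the 12 libraries and entered the limma test on log2(TPM + 1), fitted over 17623 genes. These were all 13 mRNAs, both rRNAs and 15 tRNAs, of which 10 tRNAs had at least 100 reads in all libraries together. MT-TI, MT-TQ, MT-TW and MT-TK were at 0 in every library, and MT-TA, MT-TD and MT-TL2 had 1, 4 and 2 reads in all. MT-TV, MT-TM, MT-TR, MT-TS2 and MT-TT passed the filter on 5 to 10 reads in total, and no change of theirs can be read. Whether reads in tRNA genes of these poly(A)-selected libraries came from cut-out tRNAs, uncut transcripts or the opposite strand was not tested. Values of tRNA genes below are therefore not levels of the cut-out tRNAs.

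In Cond 2 against Cond 1, 9 of the 30 members were lower at an adjusted p under 0.05 and none was higher. Across all genes tested, 6.07% were called lower and 13.8% higher in this comparison. The median log2 fold change was -0.73 over the 30 members and 0.08 over all genes, and all 13 mRNAs and both rRNAs had a negative value. Because the members are cut from shared long transcripts, their signs and calls are not independent of each other in any comparison. The share of total TPM, with 1 value per library, overlapped between Cond 2 and Cond 1 at an exact permutation p of 0.2. Without overlap between the libraries were 6 members, all lower, namely both rRNAs, MT-TF, MT-TY, MT-TG and MT-TP, where 11% of all genes were lower without overlap.

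Both rRNAs of the mitochondrial ribosome had lower TPM in Cond 2. MT-RNR2 was at 14516, 10498 and 14869 TPM in Cond 1 and at 8871, 6976 and 5183 TPM in Cond 2. Every Cond 2 library lay below every Cond 1 library, with a log2 fold change of -0.94 ± 0.192 (SE) and an adjusted p of 0.00811 in limma. MT-RNR1 was at 2390, 2115 and 2241 TPM in Cond 1 and at 1727, 1475 and 999 TPM in Cond 2, also without overlap. Its log2 fold change was -0.72 ± 0.184 (SE), with an adjusted p of 0.0228 in limma. These errors were estimated over all 12 libraries. The log2 SD of the mitochondrial sum was 0.549 in Cond 2 and 0.286 in Cond 1, but 0.0846 in Cond 3 and 0.0819 in Cond 4. With only the 6 libraries of Cond 1 and Cond 2 in the fit, neither rRNA was called.

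Among the mRNAs, 4 passed the test, each with an overlap that came from Cond 2 replicate 1. MT-ND4, a core subunit of complex I, was at 8552, 6419 and 9925 TPM in Cond 1 and at 6703, 3911 and 2819 TPM in Cond 2. Replicates 2 and 3 of Cond 2 were thus well below the lowest control library and replicate 1 was above it. Its log2 fold change was -0.96 ± 0.270 (SE), adjusted p = 0.0331 in limma. MT-CYB, the cytochrome b of complex III, had -0.94 ± 0.291, adjusted p = 0.0476. MT-ATP8 had -0.93 ± 0.288, adjusted p = 0.0483, and MT-CO3 had -0.76 ± 0.227, adjusted p = 0.0425. MT-ATP6, which shares an mRNA with MT-ATP8, had -0.92 ± 0.288 with an adjusted p of 0.0502 and was not called.

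The other 8 mRNAs had log2 fold changes between -0.62 for MT-ND1 and -0.81 for MT-ND2, and their adjusted p ran from 0.0526 for MT-CO2 to 0.234 for MT-ND1. MT-ND1 was at 4299, 2918 and 4512 TPM in Cond 1 and at 4641, 2179 and 1550 TPM in Cond 2, so that the highest of all 12 libraries and the lowest were both of Cond 2. Over the 13 mRNAs and 2 rRNAs, Cond 2 replicate 3 was the lowest library for each gene, 2.41-fold below the highest library for MT-ND3 and up to 3.68-fold for MT-ATP8. Without Cond 2 replicate 1 the same test called 20 members lower, and without replicate 2 it called MT-RNR1 and MT-RNR2 alone. Fitting only the 6 libraries of these conditions called MT-TP alone, while edgeR on recovered reads called 19 of 25 tested members lower and DESeq2 called 16 of 25. Of all 17772 genes tested by them, edgeR called 1841 lower and DESeq2 1906.

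Of the tRNA genes, MT-TY, MT-TP and MT-TG (glycine) were lower in Cond 2, and the rest did not pass. The tRNAs with the furthest values among the members with at least 100 reads were not called, MT-TS1 (serine) at -1.53 ± 0.557 with an adjusted p of 0.0842 and MT-TN (asparagine) at -1.45 ± 0.612 with 0.130, both with overlap. MT-TY was at 5820, 5598 and 7491 TPM in Cond 1 and at 4653, 4048 and 4076 TPM in Cond 2, with a log2 fold change of -0.56 ± 0.128 (SE), adjusted p = 0.0145 in limma. MT-TG was at 198, 262 and 258 TPM in Cond 1 and at 189, 167 and 137 TPM in Cond 2, with a log2 fold change of -0.54 ± 0.156 and an adjusted p of 0.0375. Neither tRNA overlapped between the conditions. MT-TP was at 675, 651 and 627 TPM in Cond 1 and at 486, 415 and 363 TPM in Cond 2, also without overlap, at -0.64 ± 0.160 and an adjusted p of 0.0212. MT-TC, which lies beside MT-TY on the same strand, was at 308, 160 and 153 TPM in Cond 1 and at 357, 188 and 179 TPM in Cond 2. Its log2 fold change of 0.22 ± 0.364 was the only positive one among the 25 members with at least 100 reads, and its adjusted p was 0.715.

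**Figure D3:**
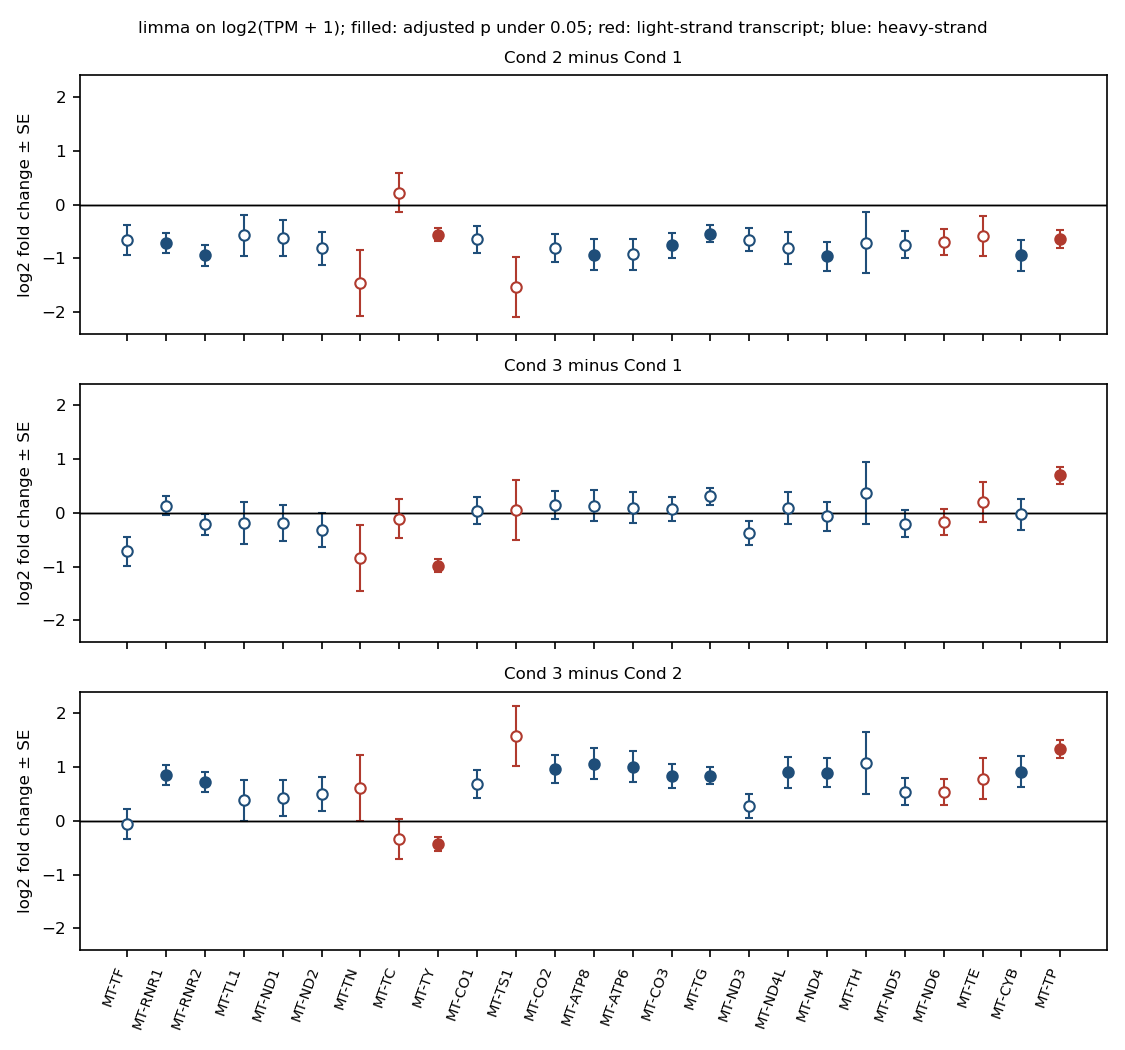
Log2 fold change ± SE (y axis) from limma on log2(TPM + 1) for the 25 members with at least 100 reads, in genome order, for 3 comparisons. Filled points passed an adjusted p of 0.05, and colours give the transcribed strand; in Cond 2 minus Cond 1 all mRNAs lie between -0.62 and -0.96, while in Cond 3 minus Cond 1 only MT-TY, below 0, and MT-TP, above 0, are filled.

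The lower mitochondrial total entered the scale of every other gene in this comparison. On TPM, 2429 genes were called higher and 1070 lower in Cond 2, which is 69.4% higher among those called. With TPM rescaled without the 37 genes the counts were 1522 higher and 1428 lower, or 51.6% higher, and with TMM factors applied to TPM they were 1459 and 1454. The nuclear counts as deposited, tested with edgeR, gave 1911 and 1790. Of the mitochondrial members, 7 were called lower on TPM rescaled without them and 11 with TMM factors.

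In Cond 3 against Cond 1 the total did not move beyond the spread, and 2 tRNA genes changed in opposite directions. The median log2 fold change of the 30 members was -0.01, and that of all genes was 0.01. One member was called lower and 1 higher, where 14.6% of all genes were called lower and 18% higher. No mRNA or rRNA passed, and their adjusted p ranged from 0.221 to 0.954.

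MT-TY, the tyrosine tRNA gene, had a lower TPM in the differentiation medium. It was at 2883, 3556 and 3092 TPM in Cond 3, below all libraries of Cond 1 and also below those of Cond 2. Its log2 fold change was -0.98 ± 0.128 (SE) with an adjusted p of 0.000415 in limma. Each Cond 3 library gave 1083 to 1285 reads for it, and each Cond 1 library 1744 to 2897.

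MT-TP, the proline tRNA gene, had a higher TPM. It was at 871, 1217 and 1111 TPM in Cond 3 and at 675, 651 and 627 TPM in Cond 1, without overlap. The log2 fold change was 0.70 ± 0.160 (SE), adjusted p = 0.00859 in limma, from 363 to 453 reads in each Cond 3 library and 209 to 253 in each of Cond 1. MT-TF was at 382, 597 and 409 TPM in Cond 3 against 734 to 760 TPM in Cond 1 and did not pass, at an adjusted p of 0.0745. MT-TY and MT-TP are read from the same promoter. Of the other genes of that strand, MT-TN had a log2 fold change of -0.84 ± 0.612 without overlap, MT-ND6 of -0.17 ± 0.243, MT-TC of -0.11 ± 0.364, MT-TS1 of 0.04 ± 0.557 and MT-TE of 0.20 ± 0.375, and none of these passed the limma test.

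Within the mitochondrial set, some shares of Cond 3 lay apart from those of Cond 1. As shares of the mitochondrial TPM, 7 of the 30 tested members lay lower and 6 higher in Cond 3 than in Cond 1 without overlap. For all genes divided by the mitochondrial sum in the same way, 10.2% lay lower and 15.2% higher. Shares of a whole are not independent of each other, and each of these comparisons has an exact permutation p of 0.1. Of all 296 share and ratio comparisons, 93 had this smallest p. The smallest Benjamini-Hochberg adjusted value over these permutation tests was 0.318, so none passed.

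The shares of mitochondrial TPM that were higher in Cond 3 were those of all 3 cytochrome c oxidase subunits, MT-ATP6, MT-ND4L and MT-TP. MT-CO2 took 14.1%, 13.95% and 13.8% of mitochondrial TPM in Cond 3, against 12.4%, 12.6% and 11.5% in Cond 1. MT-CO3 took 15.8% ± 0.323 (SD, n = 3) against 14.5% ± 0.467. The lower shares were those of the complex I subunits MT-ND2, MT-ND3 and MT-ND5, of MT-RNR2 and of MT-TF, MT-TN and MT-TY. MT-ND3 took 4.51%, 4.47% and 4.54% in Cond 3, against 5.60%, 5.94% and 5.50% in Cond 1. Its mean share in Cond 3 was 4.51% ± 0.0318 and lay below every library of the other conditions.

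Among the 13 mRNAs alone, complex I subunits made up 31.6% ± 0.736 (SD, n = 3) of the mRNA TPM in Cond 3 and 35.2% ± 0.304 in Cond 1. Complex IV subunits made up 48.0% ± 0.525 in Cond 3 and 45.4% ± 1.01 in Cond 1, and neither pair overlapped. Gene by gene on this base, 1 of the 13 mRNAs was higher without overlap, MT-CO2, and 5 were lower, MT-ND1, MT-ND2, MT-ND3, MT-ND4 and MT-ND5. Divided by the same sum, 12.5% of all genes were higher and 11.6% lower without overlap. MT-CO1, MT-CO3, MT-ATP6 and MT-ND4L, whose shares of all mitochondrial TPM were higher, overlapped here, with exact permutation p of 0.7, 0.3, 0.2 and 0.3. Complex V made up 17.0% ± 0.433 in Cond 3 and overlapped Cond 1 at 15.9% ± 1.00, while Cond 2 had 14.4% ± 0.440. MT-CYB held 3.38% ± 0.101 in Cond 3 and 3.47% ± 0.145 in Cond 1.

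By class, mRNAs held 83.5% ± 0.142 of mitochondrial TPM in Cond 3 and 80.3% ± 1.02 in Cond 1 without overlap. The ratio of MT-RNR2 to MT-RNR1 was 4.60 ± 0.266 in Cond 3 and 5.89 ± 0.850 in Cond 1, also without overlap. The rRNAs held 11.6% ± 0.301 in Cond 3 and 12.5% ± 0.686 in Cond 1. Their share was 11.5% ± 1.52 for Cond 2, against 13.6% ± 0.772 for Cond 4. The exact permutation p for the rRNA share was 0.2 for Cond 3, 0.4 for Cond 2 and 0.3 for Cond 4, each against Cond 1. On other bases the rRNAs of Cond 3 did lie below Cond 1 without overlap, each at an exact permutation p of 0.1, namely by -1.33 percentage points over mRNAs and rRNAs alone and by -1.96 percentage points as a share of mitochondrial reads. The tRNAs held 4.87% ± 0.413 in Cond 3 and 7.15% ± 0.788 in Cond 1. Their share was 8.49% ± 2.07 for Cond 2, against 5.93% ± 0.450 for Cond 4. Most of this was MT-TY, which alone took 4.50%, 5.67% and 5.15% in Cond 1 and 2.59%, 2.84% and 2.57% in Cond 3. The Cond 2 libraries were at 4.31%, 6.07% and 8.01%.

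**Figure D4:**
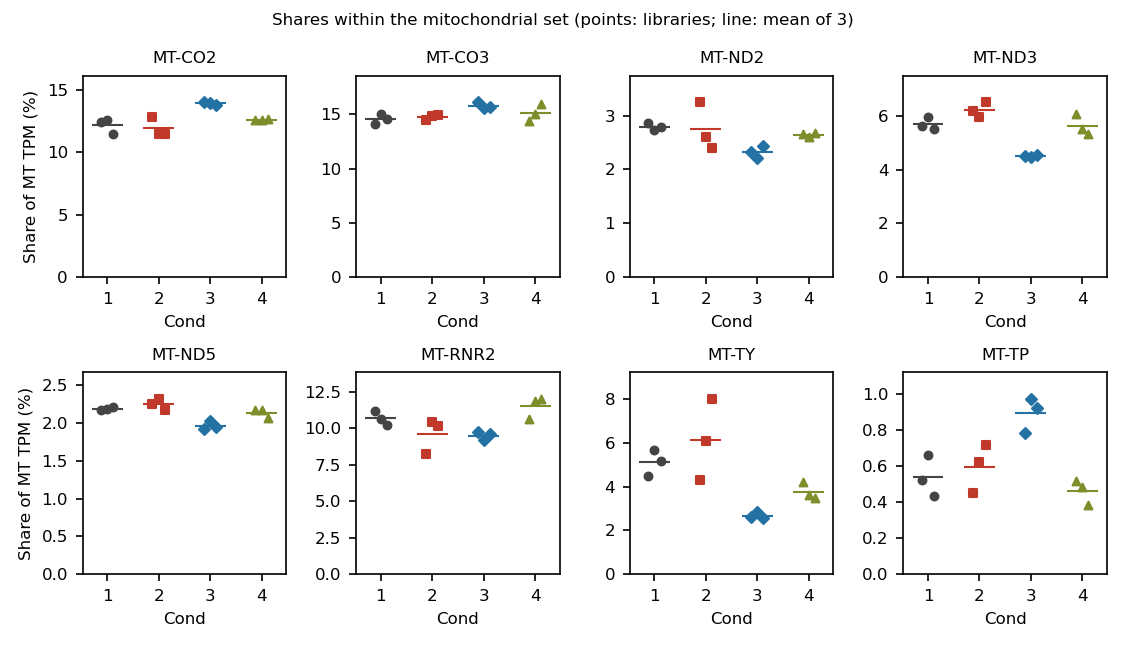
Share of the mitochondrial TPM (%, y axis from 0) taken by 8 members in the 4 conditions (x axis); points are libraries and lines the means of 3. MT-ND3, MT-ND2, MT-ND5 and MT-TY are lower in Cond 3 than in Cond 1, MT-CO2, MT-CO3 and MT-TP higher, and MT-TY spreads from 4.31% to 8.01% in Cond 2.

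Within Cond 2, replicate 1 was apart in the rRNAs. MT-RNR2 took 8.22% of mitochondrial TPM in replicate 1 and 10.5% and 10.2% in replicates 2 and 3. Against Cond 1, 1 member had a lower share without overlap, MT-ND4, and 3 a higher one, MT-TC, MT-CO1 and MT-ND3, where 0.664% of all genes divided by the mitochondrial sum were lower and 34.1% higher. MT-CO1 took 10.8%, 10.7% and 10.6% in Cond 2 against 10.0%, 9.19% and 10.1% in Cond 1, and MT-ND3 took 6.17%, 5.97% and 6.52% in Cond 2.

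Set directly against each other, the 2 altered media differed in 13 members. Their lengths of exposure differed too, and the part of each in these values was not tested. In Cond 3, 12 were higher than in Cond 2 and MT-TY was lower, where 13.5% of all genes were called higher and 20.6% lower. MT-TR was among the 12 on 0 reads in each Cond 2 library and 1, 1 and 3 in Cond 3, so no fold is given for it. Without overlap, 13 members were higher, against 19.3% of all genes. The median log2 fold change was 0.70 over the members and -0.06 over all genes. The 7 mRNAs called were MT-ATP6, MT-ATP8, MT-CO2, MT-CO3, MT-CYB, MT-ND4 and MT-ND4L, with log2 fold changes of 0.83 to 1.06. Both rRNAs were called higher as well, MT-RNR1 at 0.85 ± 0.184 and MT-RNR2 at 0.72 ± 0.192. MT-TP was 2.52-fold higher in Cond 3, at a log2 fold change of 1.33 ± 0.160 (SE) and an adjusted p of 0.000254 in limma. MT-TY was lower by -0.43 ± 0.128 on the log2 scale, adjusted p = 0.0282, and this call was lost when TPM was rescaled without the mitochondrial genes. These contrasts share the Cond 2 or Cond 3 libraries with those against Cond 1.

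In Cond 4 against Cond 1 limma called 0 of the 30 members, edgeR and DESeq2 on recovered reads also called 0, and 2 members had an unadjusted p under 0.05 in limma. These were MT-TY, with 5322, 5080 and 4457 TPM in Cond 4 and a log2 fold change of -0.34 ± 0.128 (SE), and MT-TG, with 336, 338 and 264 TPM and 0.39 ± 0.156. Both had an adjusted p of 0.844. Across all genes 0% were called lower and 0.0113% higher. The 13 mRNAs had log2 fold changes of 0.02 to 0.17. The tRNA share of mitochondrial TPM, 5.93% ± 0.450 in Cond 4, lay below Cond 1 without overlap, at an exact permutation p of 0.1. The same held for the complex I share of mRNA TPM, 34.1% ± 0.614 against 35.2% ± 0.304.

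The nuclear partners of the same complexes were summed beside the mitochondrial mRNAs. The 79 listed nuclear subunits of complexes I, III, IV and V summed to 15353 ± 1066 TPM (SD, n = 3) in Cond 1. The sums were 14547 ± 585 TPM for Cond 2, 14577 ± 267 for Cond 3 and 14809 ± 360 for Cond 4. The mitochondrial mRNAs summed to 7.07, 4.72 and 7.99 times the nuclear subunits in the libraries of Cond 1 and to 6.52, 3.54 and 2.63 times in Cond 2. Cond 3 stood at 6.53, 7.09 and 6.83 times, and Cond 4 at 6.82, 7.52 and 7.19 times. The log2 ratio differed from Cond 1 by -0.71 in Cond 2, with an exact permutation p of 0.2, and by 0.08 in Cond 3, with p = 0.9. Cond 3 exceeded Cond 2 by 0.79 at the exact permutation p of 0.1, without overlap by a narrow margin, 6.53 against 6.52 times. As a difference of mean log2 values the same comparison gave 0.69 with overlap and an exact permutation p of 0.3.

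**Figure D5:**
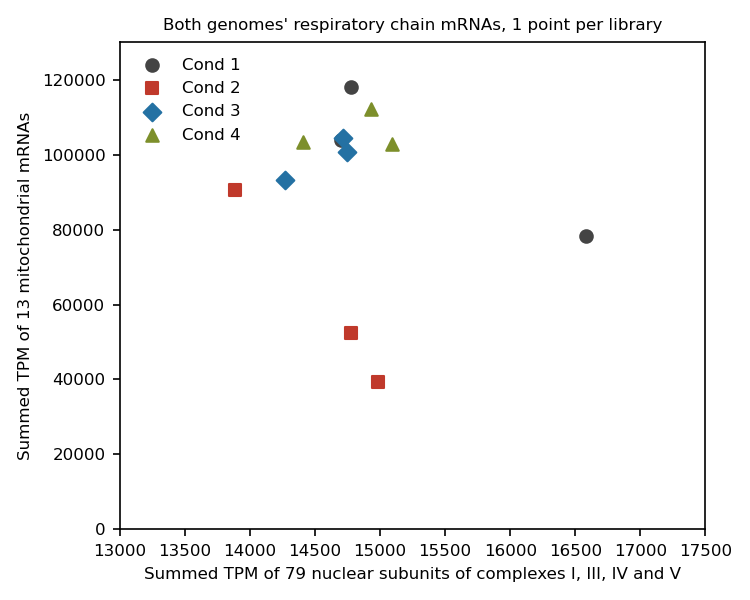
Summed TPM of the 13 mitochondrial mRNAs (y axis, from 0) against that of 79 nuclear subunits of complexes I, III, IV and V (x axis, not from 0), 1 point per library and a marker per condition. The nuclear sums lie between 13882 and 16583 TPM in all libraries, while the mitochondrial sums run from 39407 TPM in Cond 2 replicate 3 to 118105 TPM in Cond 1 replicate 3.

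The nuclear subunits that passed the limma test in Cond 2 were lower, in numbers to be read beside the 6.07% of all genes called lower and 13.8% called higher. Of 33 tested complex I subunits 3 were lower and none higher, led by NDUFV1, a core subunit of the NADH-binding part, at 77.2 ± 3.97 TPM against 108 ± 8.80 in Cond 1 and a log2 fold change of -0.47 (adjusted p = 0.00155, limma). For complex IV 1 of 13 was lower, NDUFA4, and for complex V 2 of 17 were lower, ATP5PD at -0.47 and the c-ring gene ATP5MC1 at -0.39. Complex III had 0 of 9 in limma, with 1 at an unadjusted p under 0.05, while edgeR on the deposited counts called 2 of 8 lower. Of all genes, edgeR called 1790 of 17747 lower. Of 4 complex II genes, which have no mitochondrially encoded partner, SDHA was lower. The list medians lay between -0.15 and 0.02 beside 0.08 for all genes.

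In Cond 3, 7 complex I subunits were lower and 1 higher than in Cond 1, 2 of 9 complex III subunits were higher, and for complex V 2 were higher and 3 lower, where 14.6% of all genes were lower and 18% higher. UQCRB, a subunit of complex III, had 42.8 ± 3.90 TPM against 34.4 ± 4.09 in Cond 1 and a log2 fold change of 0.31, adjusted p = 0.0293. Complex IV had 0 calls in Cond 3 in limma, with 2 at an unadjusted p under 0.05, while edgeR called 4 of 13 lower. Of all genes, edgeR called 3343 of 17747 lower in Cond 3. Complex II had 0 calls and 0 unadjusted p under 0.05 in both tools.

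Genes that maintain and transcribe mitochondrial DNA were tested as a list of 18, with 17 passing the filter. TFAM, the packaging protein and transcription factor of mitochondrial DNA, was higher in Cond 2, at 98.6 ± 4.40 TPM against 80.2 ± 3.91 in Cond 1. Its log2 fold change was 0.29, adjusted p = 0.0121 in limma, and with TPM rescaled without the mitochondrial genes it was 0.22 with an adjusted p of 0.0576. No other gene of the list was called in Cond 2 in limma on TPM, where 13.8% of all genes were higher and 6.07% lower. Limma with TMM factors and edgeR on the deposited counts each called 1 higher and 2 lower. Of all genes, these called 1459 of 17623 and 1911 of 17747 higher, and 1454 and 1790 lower. In Cond 3, 2 were higher and 4 lower, where 18% of all genes were higher and 14.6% lower. Among them were MGME1, a nuclease of mitochondrial DNA, at 0.29, and POLG2, the accessory subunit of its polymerase, at -0.42.

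The RNA processing and stability list had 0 of 21 calls in limma in Cond 2, with 4 at an unadjusted p under 0.05, while edgeR called 3 lower. Of all genes, edgeR on the deposited counts called 1790 of 17747 lower. In Cond 3, limma called 3 higher and 4 lower, where 18% of all genes were higher and 14.6% lower. LACTB2, a mitochondrial ribonuclease, had a log2 fold change of -0.43 in Cond 3, with an adjusted p of 0.0260 in limma. KIAA0391, the catalytic subunit of the enzyme that cuts the 5' ends of mitochondrial tRNAs, was at 3.84 ± 0.144 TPM against 2.60 ± 0.370, a log2 fold change of 0.43 with an adjusted p of 0.0460 that became 0.0551 with TMM factors. For tRNA and rRNA modification, 7 of 24 were lower and 2 higher in Cond 3, beside the same shares of all genes. TFB1M, which methylates the 12S rRNA, had a log2 fold change of -0.47, and MTO1, which modifies tRNA wobble bases, of -0.43. In Cond 2, 1 of these 24 was higher, where 13.8% of all genes were higher.

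Of 78 tested mitochondrial ribosomal protein genes, 3 were higher and 1 lower in Cond 2 in limma, where 13.8% of all genes were higher and 6.07% lower. By contrast, edgeR on the deposited counts called 0 of 76 higher and 11 lower, where 1911 of all 17747 genes were higher and 1790 lower. In Cond 3 limma called 7 higher and 11 lower, where 18% of all genes were higher and 14.6% lower. MRPS10 was at 86.9 ± 1.10 TPM in Cond 3 against 125 ± 7.19 in Cond 1, a log2 fold change of -0.52. The 10 tested biogenesis regulators had 2 higher and 1 lower in Cond 2, and 2 higher and 2 lower in Cond 3, beside the same limma shares of all genes. The higher ones in Cond 2 were GABPA, at 0.49, and NRF1, at 0.36, transcription factors of nuclear genes for mitochondrial proteins. NRF1 had an adjusted p of 0.0337 on TPM and of 0.0689 with TMM factors.

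The mitochondrial stress response list held the most calls per gene in Cond 3. Of 21 tested genes 16 were lower and 1 higher in Cond 3 than in Cond 1, with a median log2 fold change of -1.21. GDF15, a secreted stress signal, was at 8.01 ± 1.02 TPM against 125 ± 31.6 in Cond 1, and ATF5, a transcription factor of the list, at 14.9 ± 3.76 against 153 ± 37.9. In Cond 2 only DDIT3, which encodes the stress factor CHOP, passed, at 71.0 ± 6.11 TPM against 49.6 ± 4.51 and a log2 fold change of 0.51. All 11 lists together had 8 higher and 9 lower of 247 tested genes in Cond 2 on TPM. On that scale 13.8% of all genes were higher and 6.07% lower, so both counts lay below those shares. In Cond 3 they had 22 higher and 54 lower, where 18% of all genes were higher and 14.6% lower. The stress response list alone gave 16 of these 54, from 21 of the 247 tested genes. In Cond 4 limma and edgeR both called 0, with 6 genes at an unadjusted p under 0.05 in limma and 12 in edgeR. The Cond 2 counts depended on the scaling. On TPM rescaled without the mitochondrial genes 3 were higher and 24 lower of 247, where 1522 of all 17623 genes were higher and 1428 lower. In edgeR on the deposited counts 5 were higher and 38 lower of 241, where 1911 of all 17747 genes were higher and 1790 lower. In both, the lower count lay above the share of all genes and the higher count below it.

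Copies of mitochondrial DNA in the nuclear genome were listed under their own names. By name 407 such genes were in the table, and 20 had a mean of at least 1 TPM. The highest, MTATP6P1, was at 1734, 1283 and 2001 TPM in Cond 1 and at 1427, 744 and 564 TPM in Cond 2. MTND2P28 was at 485, 347 and 529 TPM in Cond 1 and at 481, 253 and 170 TPM in Cond 2. Together the copies held 0.247% ± 0.0510 (SD, n = 3) of TPM in Cond 1 and 0.142% ± 0.0684 in Cond 2.

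How far each member could be confused with such a copy was taken from words of 31 bases. Of the words of MT-CO1 69.7% also occur in the nuclear genome of GRCh38, of MT-ATP6 63.7% and of MT-ND2 56.9%. For MT-CYB the value was 7.11%, for MT-ND3 4.11% and for MT-TP 5.26%, and for MT-TY it was 58.3%. Among the other members called lower in Cond 2, MT-RNR1 shared 63.7%, MT-CO3 45.2%, MT-ATP8 44.1%, MT-RNR2 36.4%, MT-ND4 21.2% and MT-TG 5.26%. MT-TQ, MT-TW and MT-TK, at 0 reads, and MT-TA, at 1 read, share 100% of their words, while MT-TI, also at 0, shares 48.7%. MT-TE, MT-TS1, MT-TN and MT-TV also share 100%, at 1194, 421, 228 and 5 reads in all libraries together. The part of this sharing in the read numbers was not tested. Reads that match a copy equally well may be counted there or nowhere, depending on settings not given in the sources used here.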

How the data were processed

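RNA-Seq of 12 poly(A)-selected, directional libraries was analysed, 3 per condition, with groups taken from the treatment labels. By the methods and processing notes, the authors trimmed reads with cutadapt (4.1) and fastp (0.20.1), aligned them to GRCh38 with HISAT2 (2.1.0) and counted them per gene with featureCounts. The deposited count table holds whole reads for 58575 usable gene rows, without normalization; 5 lines were unusable, and it has no rows for the 37 mitochondrial genes. The TPM values deposited by the authors cover 60617 rows and sum to 1000000 per library. The strand and multi-mapping settings are not given in the sources used here; without them, reads of overlapping or antisense genes cannot be told apart.

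The mitochondrial reads were recovered from TPM as value times gene length over the library factor of the counted genes. All 444 values were whole within 1e-06 (100%). Depth was 16441148 to 21871503 counts per library plus 205516 to 732930 mitochondrial reads; their number limits precision, most of all for tRNAs.

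The main test was limma (3.58.1, R 4.3.3) on log2(TPM + 1) over 17623 genes with a mean TPM of at least 1, with all 12 libraries in one fit and Benjamini-Hochberg adjustment over all genes; a fold change on this scale understates changes of low genes. Called means an adjusted p under 0.05. Shares and ratios were compared with exact two-sided permutation tests (SciPy 1.17.1). edgeR (4.0.16) and DESeq2 (1.42.0) ran on counts with recovered reads as alternatives. On simulated data for 17623 genes limma recovered 94 of 100 genes changed by 1 and 99 of 100 changed by 2 on the log2 scale. The members and the gene lists were chosen with earlier results of these data known. Named genes are all mRNAs and rRNAs, tRNAs with a mean of at least 1 TPM, at most 3 called and non-overlapping genes per list and contrast, and nuclear copies with a mean of at least 1 TPM. The markers were lists of 15 pluripotency, 11 fibroblast, 8 neuroectoderm and 9 mesendoderm genes; the mesendoderm sum was 5.38 to 11.1 TPM and the fibroblast sum 267 to 627 TPM. The alternatives changed the scaling, pseudocount, filter, tool, samples and block, and left out each library in turn. Replicate numbers did not pair the libraries.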

Additional observations from a re-analysis of the deposited data

How the results depend on the processing

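Of the results for single genes, 409 kept direction and side of the threshold under an alternative, 134 kept direction only and 6 changed sign; for shares, ratios and counts these were 288 kept, 51 moved and 9 changed sign, and the cause was not tested. Members called lower in Cond 2 (9 of 30) numbered 14 with TPM of at least 1 in all libraries, 4 with no filter, 14 with a trended variance, 19 of 25 tested in edgeR, 16 of 25 in DESeq2, 1 with only 6 libraries and, after division by the mitochondrial mRNA sum (chosen after seeing the data), 1 lower and 1 higher. For Cond 3 against Cond 1 (1 lower, 1 higher), 2 were lower with a trend, 3 in edgeR, 2 in DESeq2 and 3 with only 6 libraries, and 0 in either direction after that division. For Cond 3 against Cond 2 (1 lower, 12 higher), 0 were lower with no filter, on rescaled TPM or with TMM factors, 3 lower and 1 higher after that division, and 6 higher with only 6 libraries. That division also turned the Cond 2 minus Cond 1 log2 values to 0.0694 for MT-RNR1, 0.23 for MT-TY, 0.0289 for MT-CO3, 0.25 for MT-TG and 0.15 for MT-TP, and Cond 3 minus Cond 2 to -0.0734 for MT-RNR2. The rRNA share, Cond 3 minus Cond 2, became -0.409 on recovered reads and -0.470 over mRNAs and rRNAs only (also chosen after seeing the data), and the ratio to nuclear subunits, Cond 3 minus Cond 1, became -0.0353 as a mean of log2 values. Nuclear list counts in Cond 2 (8 higher, 9 lower) became 3 and 25 with TMM factors, 3 and 24 on rescaled TPM, and 5 and 38 in edgeR. Those for Cond 3 over Cond 2 (21 higher) became 37, 38 and 43.

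Leaving out each library in turn gave ranges, in the order Cond 2, Cond 3 and Cond 4 against Cond 1 and Cond 3 against Cond 2. The mitochondrial share differed by -6.57 to -3.72, -1.83 to 0.500, -0.525 to 1.81 and 3.17 to 6.02 percentage points, changing sign without Cond 1 replicate 3 for Cond 3 and without Cond 1 replicate 2 for Cond 4. The rRNA share differed by -1.56 to -0.131, -1.35 to -0.689, 0.654 to 1.48 and -0.829 to 0.597, the last being -0.116 without Cond 3 replicate 1 and -0.829 without Cond 2 replicate 1. The log2 ratio to nuclear subunits differed by -1.08 to -0.42, -0.14 to 0.24, -0.0685 to 0.31 and 0.50 to 1.16, both sign changes coming without Cond 1 replicate 2. The log2 MT-ND6 ratio differed by 0.01 to 0.15, -0.26 to -0.14, 0.02 to 0.13 and -0.34 to -0.20. Members called lower in Cond 2 ran from 2 (without Cond 2 replicate 2) to 20 (without Cond 2 replicate 1), with 3 without Cond 2 replicate 3, Cond 1 replicate 1 or Cond 1 replicate 3, and 5 without Cond 3 replicate 3. For Cond 3 against Cond 1, 1 to 2 were lower (2 without Cond 2 replicate 1, Cond 2 replicate 3 or Cond 3 replicate 2) and 1 to 2 higher (2 without Cond 1 replicate 3). For Cond 3 against Cond 2, 0 to 1 were lower (0 without Cond 2 replicate 1, Cond 3 replicate 1 or Cond 3 replicate 3) and 5 to 21 higher, with 21 without Cond 2 replicate 1, 5 without Cond 2 replicate 2 or Cond 3 replicate 3, and 6 without Cond 2 replicate 3 or Cond 3 replicate 2. For Cond 4, 0 were called throughout.

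The replicate numbers did not pair the libraries: the 18 correlations between libraries of the same number ran from -0.040 to 0.035, and 6 of 12 libraries correlated best with their own number. With the replicate block, 5 members were lower in Cond 2, 2 lower in Cond 3 against Cond 1 and 0 lower in Cond 3 against Cond 2, and 5 nuclear list genes were higher in Cond 2; the paired exact permutation p of the share was 0.25 for Cond 2 against Cond 1, the smallest that 3 pairs can give. Depth limits the tRNAs most, with MT-TP at 119 to 453 reads per library.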
